A study of Caenorhabditis elegans with 2 samples.

Results

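The spliceosome and splicing factor genes of Caenorhabditis elegans were examined for promoter binding of MEP-1, a zinc finger protein. They were taken as the protein-coding genes whose name begins with prp-, snr-, rsp-, uaf- or lsm-, which gave 37 of the 19973 protein-coding genes on the nuclear chromosomes of WBcel235 (ce11). The set holds 7 snr genes, 7 lsm genes, 13 prp genes, 8 rsp genes and 2 uaf genes. Binding was measured by chromatin immunoprecipitation with sequencing (ChIP-seq) of MEP-1 fused to eGFP, in L1 larvae used whole. The strain, OP102, carries the array wgIs102 and the unc-119(tm4063) mutation on III. All the material is of this 1 genotype and stage, with males and females pooled and the age given as unknown. The 2 biological replicates form a single group, so conditions cannot be compared, and no control library was analysed here. What drives the tagged protein in the array is not given in the sources used here. Whole larvae mix all tissues, so a peak cannot be placed in 1 cell type.

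Introns are removed by the spliceosome, which is built for each intron from small nuclear RNAs and their proteins. The U1 and U2 particles first mark the splice sites, the U4/U6.U5 tri-snRNP then joins, and rearrangements driven by helicases open the catalytic centre. Sm proteins, encoded by the snr genes in the worm, form the ring around U1, U2, U4 and U5 RNAs, and the related LSm proteins form the ring on U6. SR proteins, encoded by the rsp genes, bind exons and help choose sites, and the U2AF dimer reads the end of the intron. MEP-1 is known from a repressive complex with the chromatin remodeller LET-418, and it binds the MOG proteins, worm relatives of yeast splicing helicases. Many worm genes lie in operons, where several genes are transcribed from 1 upstream promoter and the messages are separated by trans-splicing.

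MEP-1 peaks lay in the promoter windows of most of these genes, and many of the summits also lay in a neighbour's window. The authors' optimal peak list came from their reproducibility step. It put a summit in the promoter window of 29 of the 37 (78.4%), against 17.5% of all protein-coding genes. Its 4904 peaks are the highest-signal ones pooled over both replicates, so a place in it does not show reproducibility peak by peak. Each summit was then counted only for the gene whose 5′ end was nearest, among the genes whose windows held it. By this rule 17 of 37 had one (45.9%), which is no longer most of the set, against 13.4% of all genes. The promoter window reached 1000 bp upstream and 200 bp downstream from each 5′ end of a gene's protein-coding transcripts. The strongest peaks were at prp-8, prp-19 and prp-40, and the 8 genes without a summit were snr-5, lsm-8, prp-3, prp-17, prp-38, prp-39, rsp-4 and uaf-1. Each of the 29 genes had exactly 1 summit in its window, and all 29 of these summits were upstream of the gene's nearest 5′ end, as were 94.3% of those of all genes with a summit. Because some genes face each other across 1 summit, the 29 genes had 27 distinct peaks. Membership follows the gene names alone, but the set was picked with earlier results of these data known. No test of the set was made, and the shares are descriptions.

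The sequence under the summits is shown for the 2 strongest peaks, for the strongest rsp and lsm peaks, and for the 2 summits that lie between a pair of genes of the set. Each run covers 100 bases on either side of the summit on the plus strand of ce11, read 5′ to 3′ from the RefSeq WBcel235 genome. Capitals mark GACGCA, the word CGTCTC or the reverse complement of either, words that were found earlier in these same peaks. The regions are chrIII:8163964-8164164 for prp-8, chrIII:5172595-5172795 for prp-19 and chrIII:12688092-12688292 for rsp-3. The others are chrIV:10933182-10933382 for lsm-7, chrII:11453097-11453297 for rsp-1 and rsp-2, and chrII:6489875-6490075 for rsp-5 and snr-3.
prp-8: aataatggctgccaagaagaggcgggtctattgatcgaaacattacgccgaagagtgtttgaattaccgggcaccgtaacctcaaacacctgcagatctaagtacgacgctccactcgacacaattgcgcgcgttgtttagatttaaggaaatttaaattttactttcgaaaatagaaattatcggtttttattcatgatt
prp-19: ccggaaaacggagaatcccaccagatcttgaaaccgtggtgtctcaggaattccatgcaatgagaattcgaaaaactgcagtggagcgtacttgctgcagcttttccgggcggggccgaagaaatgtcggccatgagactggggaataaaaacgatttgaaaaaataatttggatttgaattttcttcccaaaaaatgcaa
rsp-3: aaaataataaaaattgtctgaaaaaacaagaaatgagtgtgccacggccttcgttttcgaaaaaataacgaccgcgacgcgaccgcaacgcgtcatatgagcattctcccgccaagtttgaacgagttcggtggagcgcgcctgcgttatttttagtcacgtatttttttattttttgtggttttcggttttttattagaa
lsm-7: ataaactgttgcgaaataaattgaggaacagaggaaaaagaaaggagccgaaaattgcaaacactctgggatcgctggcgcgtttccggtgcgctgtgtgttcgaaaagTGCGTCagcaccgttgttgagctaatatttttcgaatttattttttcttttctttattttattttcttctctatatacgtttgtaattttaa
rsp-1 and rsp-2: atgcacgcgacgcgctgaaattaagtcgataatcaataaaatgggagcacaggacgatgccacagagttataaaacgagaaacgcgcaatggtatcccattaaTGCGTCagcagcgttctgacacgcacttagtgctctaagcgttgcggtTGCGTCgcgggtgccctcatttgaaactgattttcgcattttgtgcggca
rsp-5 and snr-3: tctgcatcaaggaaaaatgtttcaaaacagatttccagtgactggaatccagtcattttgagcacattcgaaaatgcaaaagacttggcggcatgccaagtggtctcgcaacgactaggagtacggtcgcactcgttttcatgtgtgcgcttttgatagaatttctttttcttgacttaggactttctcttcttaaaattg
Words of this kind are present at lsm-7 and at the rsp-1 and rsp-2 summit, and absent from the other 4, the 2 strongest among them.

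The Sm ring genes come first. The 7 Sm proteins assemble into the ring that holds the small nuclear RNAs, and 6 of their 7 genes had a promoter summit (85.7%, against 17.5% of all genes). With nearest 5′ ends alone only snr-4 and snr-6 kept theirs, 2 of 7 (28.6%, against 13.4%). The signal value of each peak is the authors' own, on a scale that is not stated, and it is used here only to rank peaks within a list (rank 1 is the highest). The strongest was at snr-6, which encodes SmE, with a signal of 196 (rank 586 of 4904). It ranked 573 in replicate 1 and 704 in replicate 2, so both placed it similarly. The snr-4 gene (SmD2) had a signal of 174 at chrV:11979972-11980154, ranked 924 in replicate 1 and 539 in replicate 2. Its summit lay 62 bp from the snRNA gene T11F9.15, and binding at the 2 genes cannot be told apart. This was the only one of the 27 peaks with its summit within 200 bp of a tRNA, snoRNA, snRNA, miRNA or rRNA gene. The genes snr-1 (SmD3, signal 149), snr-2 (SmB, 128) and snr-3 (SmD1, 101) followed. The weakest was snr-7 (SmG), with a signal of 69.7, ranked 2757 in replicate 1 and 5035 in replicate 2, where it fell past rank 4904. The snr-5 gene (SmF) had no optimal summit. Its best pooled summit, 304 bp upstream, had a signal of 30.9 and rank 7488, and in its window the best call ranked 13058 in replicate 1 and 4168 in replicate 2.

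The LSm genes gave the same count, 6 of 7, and 3 of 7 (42.9%) with nearest 5′ ends alone. The shares of all genes were 17.5% and 13.4%. LSM-1 belongs to the cytoplasmic ring that acts in mRNA decay and LSM-8 to the nuclear ring on U6, and the other LSm proteins serve in both. The strongest peak was at lsm-7, with a signal of 185 (rank 685) at chrIV:10933196-10933337, ranked 645 in replicate 1 and 871 in replicate 2. Next came lsm-1 (signal 119), lsm-6 (113), lsm-3 (111) and lsm-5 (82.5). The lsm-4 peak was the weakest of all 27, with a signal of 46.1 and rank 4805, close to the lowest signal in the optimal list, 45.3. It ranked 7007 in replicate 1 and 3749 in replicate 2. The gene of the nuclear ring, lsm-8, had no optimal summit. Its window held a pooled summit of rank 19972 with a signal of 15.1, a call of rank 14176 in replicate 1 and no call in replicate 2.

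The prp genes encode particle proteins and assembly factors, and 9 of 13 had a summit (69.2%, against 17.5% of all genes). With nearest 5′ ends alone 6 of 13 had one (46.2%, against 13.4%). PRP-8, the large protein at the catalytic centre, had the strongest peak of the whole set at its gene, with a signal of 292 (rank 206) at chrIII:8163966-8164203. It ranked 246 in replicate 1 and 159 in replicate 2. The gene of PRP-19, the ubiquitin ligase of the activating complex, had a signal of 262 (rank 296) at chrIII:5172578-5172815, ranked 300 in replicate 1 and 321 in replicate 2. Its summit lay 650 bp from prp-19 but 25 bp from the 5′ end of K10D2.5, the nearest gene, and it was also in the window of emb-1. Both replicates therefore placed these peaks near the top of their lists. The prp-40 gene, whose yeast relative belongs to the U1 particle, had a signal of 200.1, ranked 456 in replicate 1 and 808 in replicate 2.

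Among the U2 proteins, prp-9 had a signal of 190.0 (rank 632) and prp-21 had 53.4 (rank 4114). Yeast Prp9 and Prp21 both belong to the SF3a part of the U2 particle. The prp-21 peak ranked 3267 in replicate 1 and 7901 in replicate 2, and its replicate 2 summit was 105 bp from that of the optimal list, the largest shift of the set. Of the tri-snRNP genes other than prp-8, prp-4 (signal 70.2), prp-31 (66.8) and prp-6 (58.8) had weaker peaks, and prp-3 and prp-38 had none. Of the genes for the second catalytic step, prp-18 had a signal of 128 and prp-17 had no optimal summit. The window of prp-17 held a pooled summit of rank 23744, with calls of rank 28145 in replicate 1 and 8104 in replicate 2. The remaining prp gene, prp-39, whose yeast relative is a U1 protein, had no summit even in the pooled list.

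Of the 8 SR protein genes, 7 had a summit (87.5%, against 17.5% of all genes), and the only exception was rsp-4, whose human relative is SRSF2. With nearest 5′ ends alone 5 of 8 had one (62.5%, against 13.4% of all genes). The strongest was rsp-3, the relative of human SRSF1, with a signal of 197 (rank 580) at chrIII:12688103-12688268, ranked 586 in replicate 1 and 671 in replicate 2. Its summit lay 270 bp upstream of rsp-3 but nearer the 5′ end of spin-4. The rsp-6 peak had a signal of 171 (rank 797) and showed the largest ratio between its ranks in the replicates, rank 571 in replicate 1 and 2171 in replicate 2. A single peak at chrII:11453196-11453305, with a signal of 171 (rank 799), had its summit in the windows of both rsp-1 and rsp-2, which are transcribed away from each other. It was stronger in replicate 2 (rank 416) than in replicate 1 (rank 1127) by rank. The rsp-7 gene had a signal of 159, rsp-5 had 101 and rsp-8, a relative of the fly splicing regulator Tra2, had 80.3.

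The 2 U2AF subunits differed. The gene of the small subunit, uaf-2, had a weak peak with a signal of 54.8 (rank 4006), ranked 3717 in replicate 1 and 5599 in replicate 2, with its summit 41 bp upstream. The gene of the large subunit, uaf-1, had none. The best pooled summit in its window had a signal of 25.8 (rank 9255), with calls of rank 8011 in replicate 1 and 28833 in replicate 2.

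**Figure D1:**
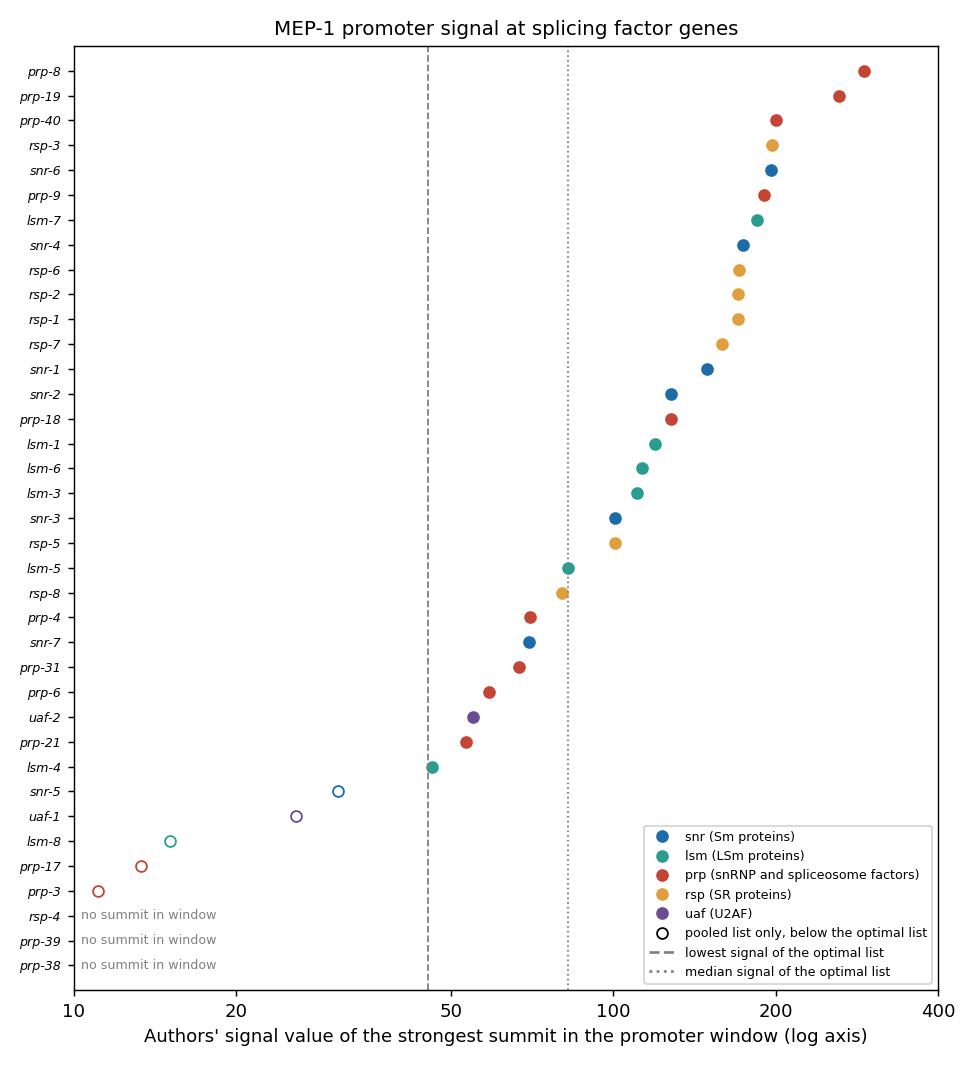
Signal value of the strongest summit in the promoter window of each of the 37 genes, on a log axis; filled points are in the optimal list, open points are in the pooled list only, and colours mark the gene families. The points run from 292 at prp-8 to 46.1 at lsm-4 in the optimal list, snr-5 is the first below it at 30.9, and 3 genes have no summit in the window in either list.

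Signal over the 29 genes ran from 46.1 to 292 with a median of 128, against a median of 106 over the 3491 genes with a summit. Of the 29, 12 (41.4%) had a peak among the first 1000 ranks, against 31.1% of all genes with a summit. With only the higher-signal 50% of peaks, 20 of 37 genes kept a summit (54.1%), against 11.4% of all genes. The members lost were lsm-4, lsm-5, prp-4, prp-6, prp-21, prp-31, rsp-8, snr-7 and uaf-2. When the much longer pooled list was used, 34 of 37 genes (91.9%) had a summit of any rank, against 42.3% of all genes. The 3 that had none even there were prp-38, prp-39 and rsp-4.

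How far the replicates held the same peaks was looked at for each of the 27. The optimal list was derived from both replicates, so some likeness is built in. The replicate lists hold 30000 and 29149 peaks, many more than the optimal list, so an overlap is easily met. The same counts were not made over all optimal peaks, so they do not set these 27 apart. An overlapping call was present in both replicate lists for all 27 peaks, and in 22 of them by a reciprocal overlap of 50%. Among the 4904 highest-signal peaks of each replicate, 23 of the 27 were found in both and 4 in only 1, namely lsm-4, prp-21, snr-7 and uaf-2. The ranks lay within a factor of 2 of each other for 22 peaks, and Spearman's rho between the 2 ranks was 0.781 over the 27 peaks, which share their libraries. The median distance of the replicate summit from the optimal one was 3 bp in replicate 1 and 9 bp in replicate 2. With the 4904 highest-signal peaks of replicate 1 alone, 28 of 37 genes had a promoter summit, against 17.4% of all genes, and lsm-4 was the gene lost. With those of replicate 2 alone, 27 of 37 had one, against 18% of all genes. There prp-21, snr-7 and uaf-2 were lost and snr-5 was gained.

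**Figure D2:**
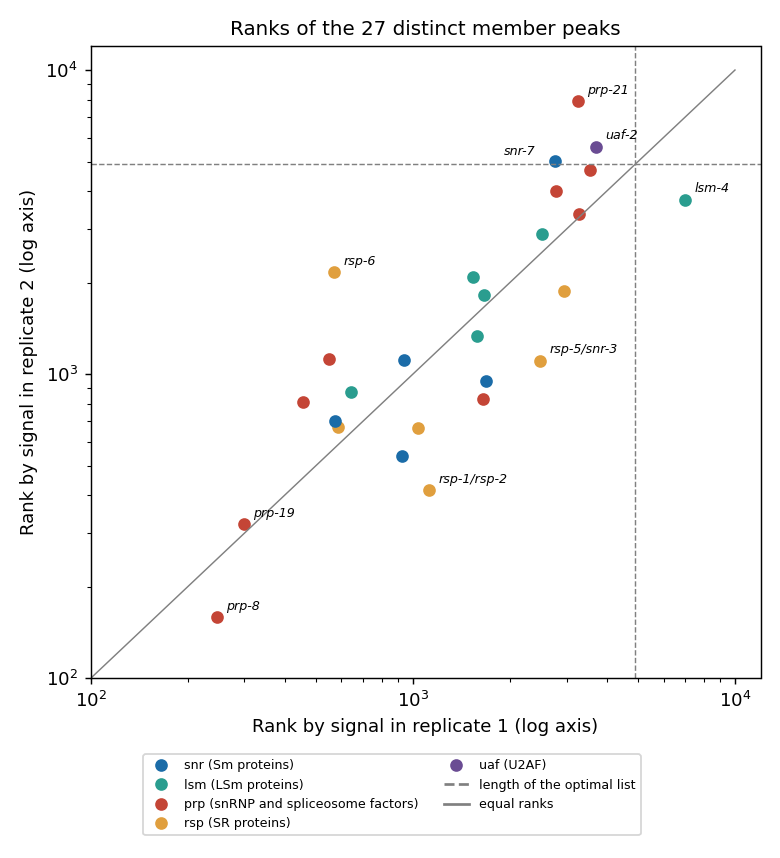
Rank by signal of the 27 distinct peaks in replicate 1 (x axis) and replicate 2 (y axis), both on log axes, with dashed lines at rank 4904 and a line of equal ranks. The peaks at prp-8 and prp-19 rank highest in both, rsp-6 ranks 571 and 2171, and only lsm-4, prp-21, snr-7 and uaf-2 lie past a dashed line.

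Summits sat a short way upstream of the genes. The median was 262 bp upstream, against 226 bp for all genes with a summit, and 19 of the 29 (65.5%) lay within 300 bp upstream, against 58.2%. The nearest was at uaf-2 (41 bp) and the farthest at lsm-3 (929 bp). At lsm-3 the same summit also lay in the windows of mdt-9, Y62E10A.20 and Y62E10A.23, and Y62E10A.23 was nearest to it. Besides lsm-3, the summit was over 500 bp upstream at prp-6 (794 bp), rsp-1 (777 bp), prp-19 (650 bp) and rsp-8 (566 bp).

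Most of these summits also fell in the promoter window of another gene. The summit lay in the window of another protein-coding gene at 24 of the 29 (82.8%), against 48.0% of all genes with a summit, and only lsm-5, prp-6, rsp-6, rsp-8 and snr-4 had theirs alone. At 20 of the 29 the summit lay between the gene's 5′ end and that of a facing gene, at most 990 bp away. With windows of 1000 bp upstream, both must hold such a summit, so sharing there follows from the arrangement. Genes with such a neighbour, called head-to-head below, made up 56.8% of the set against 18.3% of all genes. The 48.0% was not split by arrangement, so the contrast cannot be read apart from it. At 12 of the 29 genes another gene's 5′ end was nearer to the summit, among genes whose windows held it. A 5′ end with the summit over 200 bp downstream of it was not considered, so 12 is a minimum. Among these neighbours are rps-9 at lsm-1 and mrps-18B at prp-9, which encode ribosomal proteins of the cytosol and of mitochondria, and the dynactin gene dnc-1 at lsm-7. Which of the genes a shared peak belongs to cannot be told apart. When each summit counts only for the nearest 5′ end, the 29 genes became 17, and the 3491 of all genes became 2667. The genes of the set lost were lsm-1, lsm-3, lsm-7, prp-9, prp-19, prp-21, rsp-1, rsp-3, snr-1, snr-2, snr-3 and snr-7.

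In 2 places the genes that share a summit are both splicing factors of this set. The peak at chrII:6489800-6490149, with a signal of 101 (rank 1901), lay between the SR protein gene rsp-5 and the Sm protein gene snr-3, 190 bp upstream of rsp-5 and 214 bp upstream of snr-3. It ranked 2485 in replicate 1 and 1108 in replicate 2. The rsp-1 and rsp-2 peak lay 777 bp upstream of the nearest protein-coding transcript of rsp-1 and 242 bp upstream of rsp-2. The annotated boundary of rsp-1, set by a non-coding transcript, lies nearer, 165 bp from the summit, and by it rsp-1 and not rsp-2 would be the nearest gene. Another summit lay 282 bp upstream of rsp-7 and 298 bp upstream of snu-13, which encodes a protein of the U4 particle and of box C/D snoRNPs.

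The arrangement of neighbouring genes was not part of how the set was chosen, but the definitions below were chosen after values were seen. The set itself was picked with earlier results known, so the counts by arrangement are descriptions. A gene was called head-to-head where the feature nearest its outermost 5′ end, from 1000 bp upstream to 200 bp downstream, was the 5′ end of a gene on the other strand. It was called tandem where that feature was the 3′ end of a gene on the same strand. Of the 37 genes, 21 were head-to-head (56.8%), against 18.3% of all protein-coding genes. Another 10 were tandem (27%, against 29.6%) and 6 were neither (16.2%, against 52.1%). The set had 10 genes on II, 9 on III, 7 on IV, 6 on I and 5 on V. None was on X, which holds 13.7% of all protein-coding genes.

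Of the 21 head-to-head genes, 20 had a summit (95.2%), against 38.8% of all head-to-head genes, and only prp-17 had none. At all 20 the summit lay between the facing 5′ ends, which were 187 to 990 bp apart, while over all head-to-head genes with a summit it lay between them in 85.2%. With the nearest 5′ end alone, 10 of the 21 kept their summit (47.6%), against 20.5% of all head-to-head genes. The share over all protein-coding genes thus differs by arrangement, and the set holds more head-to-head genes. In the other arrangements, 5 of 10 tandem genes had a summit, against 11.8% of all tandem genes, and 4 of the 6 with neither neighbour had one (66.7%), against 13.2%. The pair rsp-1 and rsp-2 counts among the 6, because the outermost 5′ ends of their protein-coding transcripts are more than 1000 bp apart. Their gene boundaries are 407 bp apart, so by those the pair would be head-to-head, and rsp-1 is the only gene of the set whose boundary lies outside its coding 5′ ends.

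**Figure D3:**
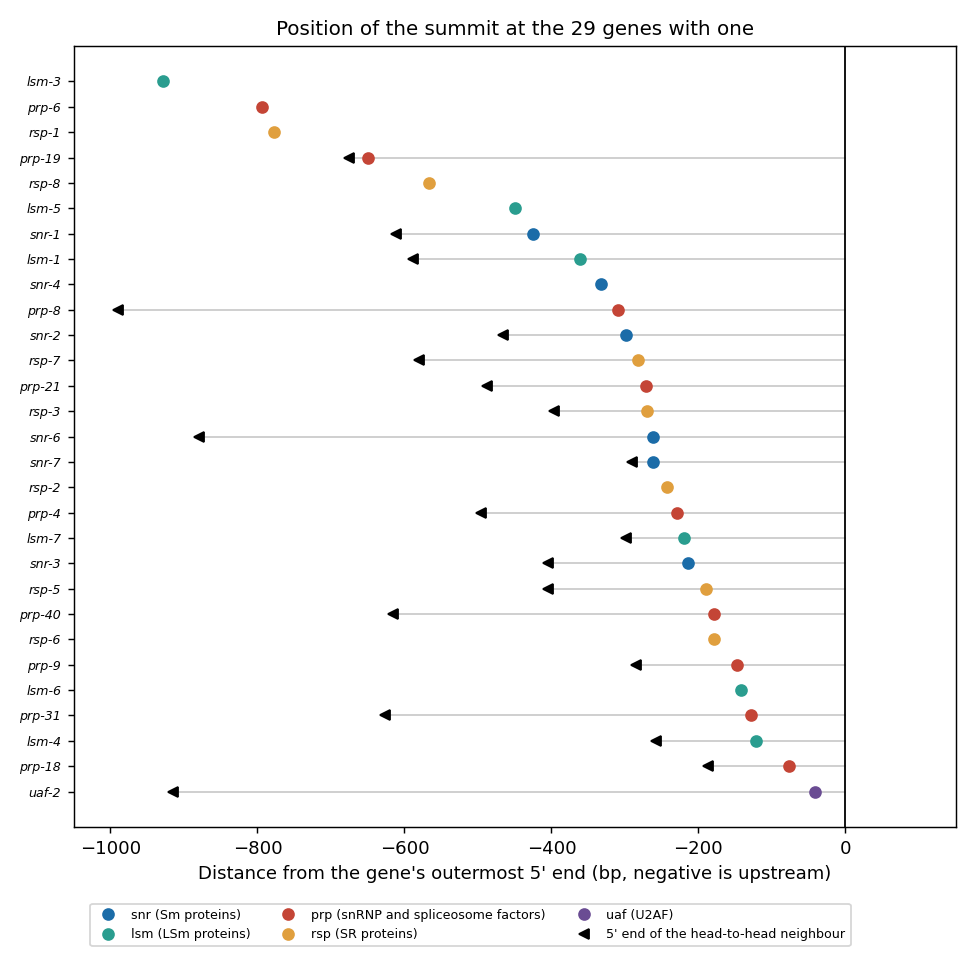
Position of the summit (coloured points) relative to the outermost 5′ end of each of the 29 genes with a summit, in bp with negative values upstream, and the 5′ end of the head-to-head neighbour where there is one (black triangles). At all 20 head-to-head genes the point lies between the triangle and 0, and the farthest point is lsm-3, 929 bp upstream.

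The genes without a summit were mostly tandem. Of the 8, lsm-8, prp-3, prp-38, prp-39 and rsp-4 follow another gene on the same strand, while prp-17 is head-to-head and snr-5 and uaf-1 are neither. At all 5 of the tandem genes the gene just upstream had a summit in its promoter window, against 20% of the 5214 tandem genes without a summit. These upstream genes are sqd-1 for lsm-8, smrd-1 for prp-3, plrg-1 for prp-38, hmgs-1 for prp-39 and ndx-6 for rsp-4. The summit at smrd-1 was also in the window of enu-3.1, and that at hmgs-1 in the window of F25B4.4, both on the other strand. The peak at plrg-1, itself the gene of a spliceosome protein of the Prp19 complex, had a signal of 220 (rank 448) and lay 2094 bp upstream of prp-38. The 3′ end of plrg-1 is 107 bp from the 5′ end of prp-38.

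The peaks at the other 4 upstream genes had signals from 73.2 to 284. The sqd-1 peak (signal 284, rank 227) lay 2663 bp upstream of lsm-8, the hmgs-1 peak (276, rank 254) 2129 bp upstream of prp-39 and the ndx-6 peak (228, rank 410) 1288 bp upstream of rsp-4. The smrd-1 peak (73.2, rank 2849) lay 8223 bp upstream of prp-3. With a window reaching 2000 bp upstream, rsp-4 was the only gene gained. The peak nearest to uaf-1, with a signal of 374 (rank 108), was 4208 bp upstream and in the windows of rab-18, on the same strand as uaf-1, and of kbp-4 and par-2, on the other. Whether any of these genes is transcribed from the upstream promoter was not tested, and operons are not marked in the annotation used.

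Other genes of the splicing machinery, listed by name, were looked at in the same way. The list called other core splicing genes here also holds genes of factors outside the spliceosome, such as the kinase gene spk-1. Of 43 other core splicing genes, 22 had a promoter summit (51.2%, against 17.5% of all genes), with a median signal of 185. The strongest were rbm-25 (signal 384, rank 96), usp-39 (376, rank 106), smu-1 (272), spk-1 (249) and rbm-39 (221). USP-39 takes part in tri-snRNP function and SPK-1 is a kinase that phosphorylates SR proteins. The summits at rbm-25 and spk-1 were nearer the 5′ ends of W04D2.4 and rheb-1. Among the 21 without a summit are bcas-2, cdc-5L and cwc-15, all tandem genes. With nearest 5′ ends alone, 18 of the 43 had a summit (41.9%, against 13.4%).

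By arrangement, the other core genes had a summit at 11 of 14 head-to-head genes, against 38.8% of all such genes. They had one at 5 of 22 tandem genes, against 11.8%, and at 6 of 7 with neither neighbour, against 13.2%. Of the 17 tandem genes among them without a summit, 7 had one at the gene just upstream (against 20% over all such genes), such as rnp-3 behind rnp-2 and skp-1 behind bir-1. Of the MOG helicase genes, which were picked out here after the values were seen, mog-4 had a signal of 194 and mog-1 and mog-5 had no promoter summit. The regulators of alternative splicing, many of which act in particular tissues, had a summit at 4 of 13 (30.8%), against 17.5% of all genes. These were hrpa-1 (signal 268), hrpf-1 (151), asd-1 (91.4) and mec-8 (48.1). Those without one include asd-2, etr-1 and exc-7. All 13 genes had neither kind of neighbour, and 13.2% of all such genes had a summit. With nearest 5′ ends alone 4 of the 13 regulators had one (30.8%), against 13.4% of all genes.

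**Figure D4:**
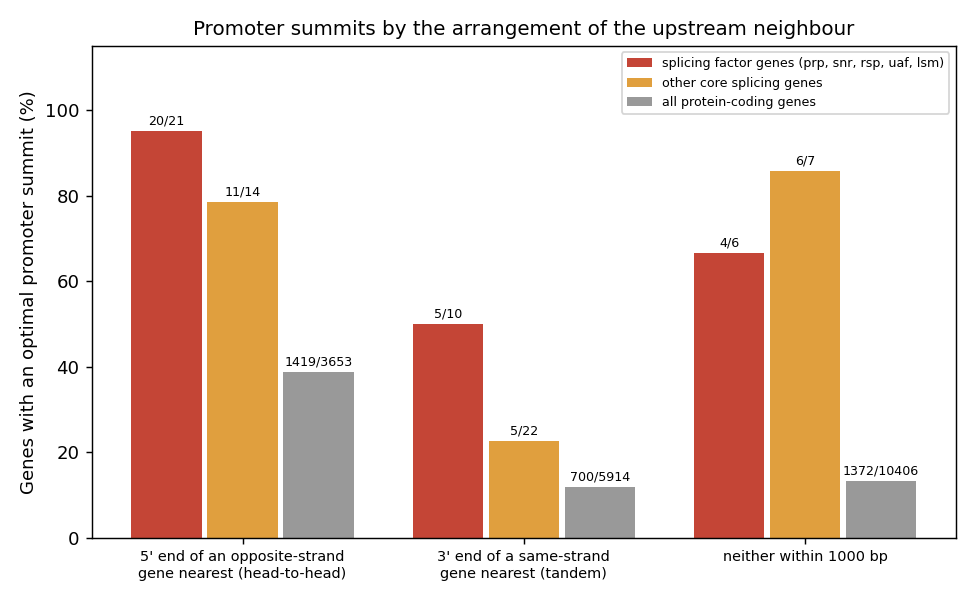
Percentage of genes with an optimal promoter summit, by the arrangement of the upstream neighbour, for the 37 splicing factor genes, the 43 other core splicing genes and all protein-coding genes; bars carry the counts and start at 0. The splicing factor genes stand at 20 of 21 head-to-head and 5 of 10 tandem, against 1419 of 3653 and 700 of 5914 of all genes.

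The base composition and words at the summits were read within 50 bp on each side. Median GC content was 45.5% over the 27 peaks and also 45.5% over the 2837 optimal summits in promoter windows. It ran from 22.8% at prp-21 to 54.5% at the highest. The word GACGCA, searched on both strands, lay at 12 of the 27 (44.4%), against 17.5% of all summits in promoter windows. The 12 peaks include those of lsm-4, lsm-5, lsm-6, lsm-7, prp-9, prp-18, prp-40, rsp-6, rsp-7, snr-1 and of rsp-1 and rsp-2. In the sequences printed above it reads, in reverse complement, TGCGTC at lsm-7 and at the rsp-1 and rsp-2 summit. The word CGTCTC lay at 4 of the 27 (14.8%), against 18.2%, and these were prp-18, rsp-7, snr-1 and snr-2. Both words are part of GAGACGCA on the reverse or forward strand, and this longer run lay at 3 of the 27 (11.1%), against 10.1%. The 2 words were picked from these same peaks in earlier work, so their counts describe the peaks and show no factor's site.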

How the data were processed

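The deposited files are peak lists on ce11 for each of 2 replicates, for both pooled (relaxed lists of 30000, 29149 and 30000 peaks) and an optimal list of 4904 peaks derived from them by a step of irreproducible discovery rate (IDR), per the deposited file lists. Column 7 holds the signal value of each peak as deposited by the authors; its scale differs between lists. No source used here names the aligner, the peak caller or the IDR threshold. Without read counts in the lists, library depth is unknown and the precision it gives could not be stated. The deposited ce10 lists were not used, since the gene models are on ce11.

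Promoter windows were built on Ensembl release 115 gene models, from 1000 bp upstream to 200 bp downstream of the 5′ ends of protein-coding transcripts, and a summit counted for each gene whose window held it. Coordinates count from 1. Replicate peaks were matched by any overlap, keeping the highest rank. Some peak sequences are not reported here. The window step was tested on simulated summits. Tools were Python 3.11.15, numpy 2.4.6, pandas 2.3.3, scipy 1.17.1 and matplotlib 3.10.9.

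No significance test was made: the design has 1 group. The members, the lists and the words were chosen with earlier results of these data known. All members are named; of the other core genes the 5 with the highest signal and the first 3 in the alphabet without a summit are named, likewise for the regulators. Others named were chosen after their values were seen, and so were the definitions of head-to-head and tandem. Alternatives were a stricter threshold, each replicate alone, other windows, the nearest or outermost 5′ end, and other overlap rules.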

Additional observations from a re-analysis of the deposited data

How the results depend on the processing

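The share of splicing factor genes with a promoter summit moved most with how a shared summit is counted and with the threshold. It was 78.4%, but 45.9% with nearest 5′ ends only and 54.1% with the higher-signal 50% of peaks. With 1 replicate left out it ran from 73.0% (replicate 2 alone) to 75.7% (replicate 1 alone). Windows of 500 bp and 2000 bp upstream gave 64.9% and 81.1%, and outermost 5′ ends or any overlap of the peak with the window left it at 78.4%. In each of these settings the share of all protein-coding genes was between 11.4% and 22.3%. The median signal was 112.8 with nearest 5′ ends only, in place of 127.7. Of the 29 genes, 17 had a summit in every setting other than the nearest 5′ end, and 10 in all settings. With 1 replicate left out, the other core genes stayed at 51.2%, and the regulators ran from 23.1% to 38.5%. A shared summit was at 24 of 29 genes with one, at 16 of 24 with a window of 500 bp and at 28 of 30 with one of 2000 bp. The share over all genes with a summit (48.0%) was counted only with 1000 bp. The counts with other windows therefore do not set these genes apart. The ce10 lists were not run. No paired analysis was possible because there is 1 group. The depth behind the peaks is unknown, no control was used here, and for a shared summit the target gene cannot be told apart.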
